A study of Mus musculus with 20 samples.

Results

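Genes of the mitogen-activated protein (MAP) kinase cascades and of the protein phosphatases that oppose them were followed in Hepa1-6 cells, a mouse hepatoma line. Members were all genes whose symbol in the array annotation starts as a MAP kinase (Mapk), a kinase of an upstream tier (Map2k, Map3k, Map4k), a numbered dual-specificity phosphatase (Dusp) or a subunit of protein phosphatases PP1 to PP6 (Ppp with c or r). This gave 117 member genes, measured by 126 probes, of 15968 gene units on the array, of which 13406 had a gene symbol. By symbol alone, 33 members were kinases, 78 phosphatases (20 dual-specificity phosphatases, 11 catalytic subunits and 47 regulatory subunits) and 6 scaffold or interacting proteins. The regulatory subunits so counted include Ppp1r2-ps7, Ppp1r2-ps9 and Ppp2r2cos, whose symbols name pseudogenes or an opposite-strand transcript.

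The glutamine-varied flasks were confluent Hepa1-6 cells given medium without glutamine at the start, 4 mM glutamine at 24 h, none at 48 h and 4 mM at 72 h. The control flasks received 4 mM glutamine at the same 4 exchanges. Both were in DMEM with 25 mM glucose and 10% CPSR-3, a serum replacement, and were followed for 96 h. RNA of the glutamine-varied flasks (Cy5) and of the control flasks (Cy3) was set against each other on 20 spotted arrays of 11 numbered time points, of which 9 had a second array and time points 5 and 11 had 1. On 1 array, the first of time point 4, the labels describe the Cy3 RNA as from cells lacking glutamine. This was taken as a slip, and the array was kept. The labels tie no hour and no glutamine level to a time point and do not say what a second array is, so p-values may measure technical spread only. Values are log2 ratios, with each array's median probe set at 0. A positive ratio likely means more RNA in the glutamine-varied flasks, because the labels list that RNA first. Base 2 is an assumption. No array had its dyes swapped, so in a mean over all time points a gene's dye bias and a steady difference cannot be told apart. A test of a single time point against the median probe holds such a bias too. It cancels between time points.

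In MAP kinase signalling, a MAP4K or a small GTPase acts on a MAP3K, which phosphorylates a MAP2K, which phosphorylates a MAP kinase such as ERK, p38 or JNK. Dual-specificity phosphatases remove phosphate from MAP kinases, and PP1 and PP2A, each a catalytic subunit with exchangeable regulatory subunits, act on many proteins, kinases of these cascades among them. In liver cells these cascades transmit growth factor, cytokine and nutrient stress signals. The arrays measured RNA, not phosphorylation.

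Results rest on 18 arrays, because 2 arrays, the second ones of time points 6 and 10, were unlike the rest. Across probes the correlations of each with the other 18 lay between -0.039 and 0.054 and between -0.067 and 0.009. Both arrays of a time point correlated at 0.518 to 0.691 at the 7 other time points that had 2. Among the 18 arrays, pairs of any time points ran from -0.040 to 0.710, so some were also uncorrelated. Each of the 18 correlated with another array at 0.548 or more. The 2 unlike arrays correlated at 0.397 with each other. The 18 arrays held 4269 to 8269 values each, 24.7% to 47.9% of the 17280 probes, and medians of 0.12 to 0.435 before centring. Every 20th spot by probe number, counted from the first, was raised at time points 5 and 6, to medians of 2.72 and 1.28, and was blanked there. Positions 2 to 4 were raised there too (1.24, 0.46 and 0.14 at time point 5, and 0.33, 0.13 and 0 at time point 6). Among tested members, Map3k7 lies at position 2, Dusp2, Map3k2 and Map3k5 at position 3, and Map2k6 and Ppp2cb at position 4. Of 15 hepatocyte and hepatoma markers, 13 were on the array, 11 gave a value and 8 were tested. For the mean over time points 1 was higher (Apoc3, 0.25) and 4 were lower (Alb, -0.60 ± 0.21, SD, n = 9 time points, with Apoe, Krt8 and Fgb between -0.35 and -0.28), and Apoa1, Apoa2 and Hnf4a did not pass. Afp gave no value, and none of 3 macrophage markers on the array did. Markers of other cell types did give values. Of 4 endothelial markers on the array 2 gave a value, and Kdr, the 1 tested for the mean, was higher (0.21). Of 6 stellate or fibroblast markers 5 gave a value, and Col1a2 (0.20) was higher whereas Acta2 (-0.01) did not pass. Of 2 lymphocyte markers 1 gave a value, Cd3e (0.11), which did not pass. Among time points, 2 of 7 hepatocyte and hepatoma markers and 2 of 3 stellate or fibroblast markers tested differed, beside 31.2% of all genes. The endothelial and the lymphocyte marker tested did not. Over time points 7 to 9 against 1 to 4, 2 hepatocyte and hepatoma markers and 1 stellate or fibroblast marker were lower, beside 6.98% of all genes. A ratio gives no level, so these values do not measure how many cells of a type were present.

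Of the 117 members, 84 gave a value on at least 1 of the 18 arrays and 33 gave none. The members were not sparser than the array at large: their probes gave a value on 38.7% of arrays on average, against 33.7% for all probes. For the mean over time points, 37 members had values at the 9 or more time points required, namely 13 kinases, 22 phosphatases and 2 scaffold proteins. For differences among time points, 36 members had the required 14 arrays. Symbols for ERK1 and ERK2 were not among the members and are not analysed here. Of the other MAP kinases, Mapk8 (JNK1) gave a value on 1 array, Mapk14 (p38 alpha) on 2 and Mapk7 (ERK5) on 5. Mapk10, Mapk11 and Mapk12 gave none. The tested MAP kinases were thus Mapk9 (JNK2), Mapk13 (p38 delta) and the atypical Mapk6.

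**Figure D1:**
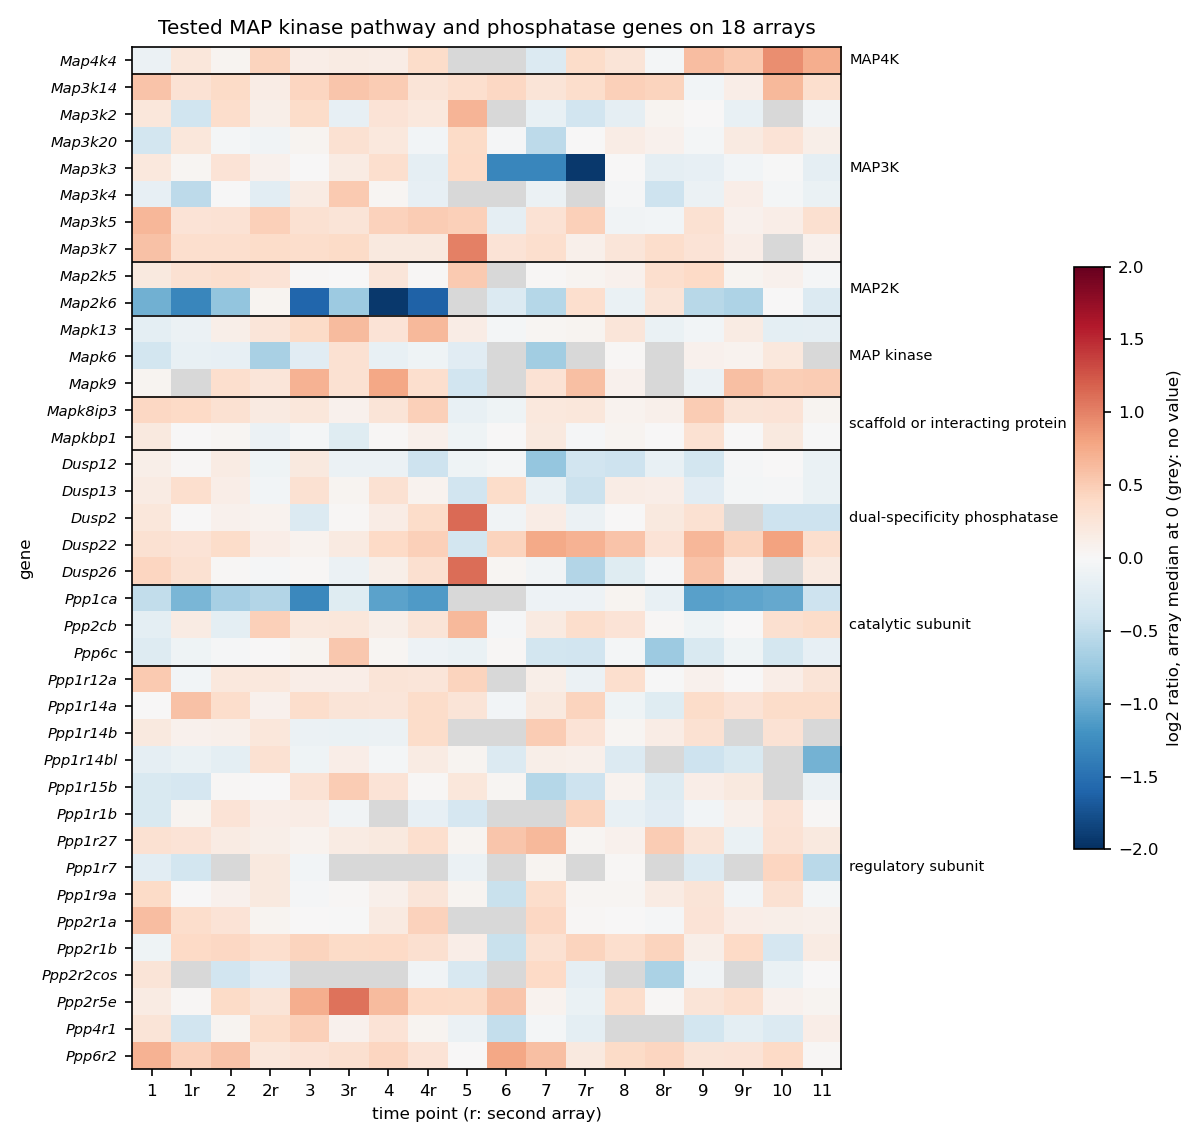
Log2 ratios (colour) of the 38 members tested for the mean or for differences among time points, in rows by role, on 18 arrays in columns by time point. Grey marks no value. Map2k6 and Ppp1ca are blue at time points 1 to 4, and Map3k3 at time points 6 and 7.

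A MAP3K, a MAP2K and a phosphatase subunit varied most between time points: Map3k3, Map2k6 and Ppp1ca. Map3k3 (MEKK3) is a MAP3K that feeds the ERK5, JNK and p38 branches. Map2k6 (MKK6) is a MAP2K that activates p38. Ppp1ca is a catalytic subunit of PP1. RefSeq promoters (GRCm38.p6, the 250 bases before a start) of both kinases, which had the largest F of all members, are printed here. Both genes lie on the plus strand of chromosome 11. The Map3k3 entry is chr11:106084337-106084586, with capitals marking the CCAAT box read on the other strand (ATTGG). The Map2k6 entry is the most upstream of 3, chr11:110398852-110399101, and holds no match to a searched motif.
Map3k3: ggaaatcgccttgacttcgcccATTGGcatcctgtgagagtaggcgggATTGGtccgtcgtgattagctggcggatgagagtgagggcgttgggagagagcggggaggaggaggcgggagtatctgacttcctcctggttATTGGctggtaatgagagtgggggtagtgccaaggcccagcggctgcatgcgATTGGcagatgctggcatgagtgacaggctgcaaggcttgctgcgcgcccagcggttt
Map2k6: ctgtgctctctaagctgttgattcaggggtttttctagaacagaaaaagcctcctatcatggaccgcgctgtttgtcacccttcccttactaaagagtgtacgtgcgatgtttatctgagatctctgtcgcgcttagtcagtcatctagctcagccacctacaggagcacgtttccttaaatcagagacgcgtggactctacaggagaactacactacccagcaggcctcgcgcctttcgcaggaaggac

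Map3k3 held 4 CCAAT matches, 228, 202, 110 and 58 bases before its start. At least 1 such match was found in 33.8% of all 32851 promoter entries and in 33% of the 115 entries of 91 matched members. Another of the Map2k6 entries held 1 GC box (GGGCGG), 173 bases before its start. Both strands were searched, and the other motifs were the AP-1 element TGACTCA, the cAMP response element TGACGTCA, the E-box CACGTG and the composite element TGATGNAA, none of which contains another. A GC box stood in 60% of member entries and 32.7% of all entries, and TGACGTCA in 6.96% and 1.55%. TGACTCA stood in 0.87% of member entries and 4.46% of all, CACGTG in 6.96% and 6.02%, and TGATGNAA in 2.61% and 3.45%. These are matches of letters in a window and carry no test.

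Map3k3 gave a value on all 18 arrays. Time point 6 had -1.31, and both arrays of time point 7 were low, with -1.30 and -1.93. On the other 15 arrays it lay between -0.18 and 0.40, with a median of 0.01. The 3 low arrays were thus consecutive, and none of the others came near them. At time point 7 the mean was -1.62 ± 0.14 (SE). That SE rests mostly on a variance that limma pooled over genes, not on the spread of these arrays alone. The F-test over time points gave 16.2 (limma adjusted p = 1.72e-14). Over time points 7 to 9 the mean was -0.60, against 0.12 over time points 1 to 4, a difference of -0.72 ± 0.11 (SE, limma adjusted p = 3.66e-07). Time points 8 and 9, with arrays between -0.18 and 0.01, shared little of that difference.

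Map2k6 was low early and close to the median probe later. Its arrays read -0.96 and -1.30, -0.79 and 0.05, -1.58 and -0.72, and -1.94 and -1.62 at time points 1 to 4. A single array read -0.28 at time point 6. Time points 7 to 9 gave -0.57 and 0.33, -0.13 and 0.25, and -0.56 and -0.61, and the last 2 time points 0.00 and -0.28. Of the 8 arrays of time points 1 to 4, 7 lay below every later array, and the second array of time point 2 was the exception. The mean over time points 7 to 9 was -0.22, against -1.11 over time points 1 to 4, a difference of 0.89 ± 0.12 (SE, limma adjusted p = 1.78e-08). The F over time points was 13.2 (limma adjusted p = 1.38e-11).

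Ppp1ca was below the median probe on 15 of 16 arrays, in 2 separate stretches. Its arrays read -0.50 and -0.92, -0.67 and -0.58, -1.29 and -0.25, and -1.07 and -1.13 at time points 1 to 4. It then read -0.10 on both arrays of time point 7 and 0.05 and -0.15 at time point 8. At time point 9 it read -1.09 and -1.05, at time point 10 it read -1.03 and at time point 11 it read -0.42. Values near 0 at time points 7 and 8 stood between low values on both sides. The F was 6.74 (limma adjusted p = 8.86e-06). Its probe is at the first of 20 positions and was blanked at time points 5 and 6, where it read 0.07 and -0.53. The mean over time points 7 to 9 was -0.41, against -0.80 over time points 1 to 4, a difference of 0.39 ± 0.11 (SE, limma adjusted p = 0.013), lost without any 1 of 3 arrays (1r, and the arrays without r of time points 3 and 8, where r marks a second array).

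**Figure D2:**
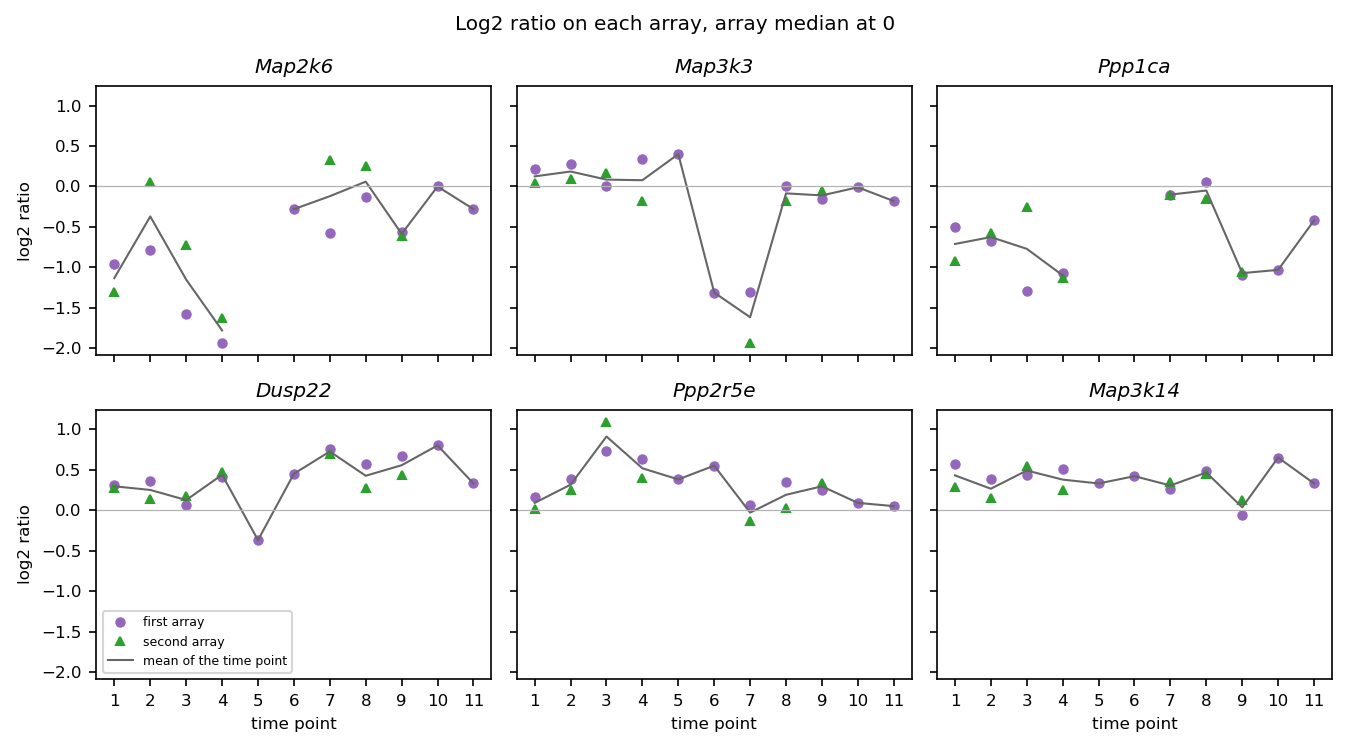
Log2 ratio (y axis) of 6 members on each array by time point (x axis). Circles are first arrays, triangles second arrays, and the line joins time-point means, with gaps where a time point has no value. Map3k3 dips to -1.93 at time point 7, Map2k6 is lowest at time point 4, and Ppp1ca returns near 0 at time points 7 and 8.

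The question of the F-test was which members differed among time points. With 13 of 36 called (36.1%), against 31.2% of all 4023 genes tested, members were called at about the share of all genes. Of these, 5 were kinases (of 13 tested) and 8 phosphatases (of 21). The median F was 1.93 for members and 1.74 for all genes. With all 20 arrays, where the 2 unlike arrays enter the spread, 5 of 34 were called with every spot kept. With the raised spots blanked 0 of 34 were called, and 8 of them had an unadjusted limma p under 0.05. Map3k3 and Map2k6 were then both at a limma adjusted p of 0.0547. The share of all genes called was not counted in these settings.

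Dusp22, a small atypical dual-specificity phosphatase linked to JNK signalling, was positive on 17 of 18 arrays. Its values were 0.31 and 0.28, 0.36 and 0.14, 0.07 and 0.18, and 0.41 and 0.47 at time points 1 to 4. After -0.37 at time point 5 and 0.45 at time point 6 they were 0.75 and 0.70, 0.57 and 0.28, and 0.67 and 0.44 at time points 7 to 9, then 0.80 and 0.33. Values from time point 6 on were mostly above the earlier ones, and the array of time point 5 was the lowest. The F was 3.34 (limma adjusted p = 0.00532), and without time point 5 the adjusted p was 0.162. Its later minus earlier difference was 0.29 ± 0.10 (SE, limma adjusted p = 0.0583), from means of 0.57 over time points 7 to 9 and 0.28 over time points 1 to 4.

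Ppp2r5e, a B56 regulatory subunit of PP2A, peaked at time point 3. Its arrays there read 0.73 and 1.09, followed by 0.64 and 0.40 at time point 4, 0.38 at time point 5 and 0.55 at time point 6. Arrays of time points 1 and 2 lay between 0.02 and 0.38, and those from time point 7 on between -0.13 and 0.35. The F was 3.54 (limma adjusted p = 0.00328), and 0.127 was the adjusted p without the second array of time point 3. Over time points 7 to 9 it averaged 0.15, against 0.46 over time points 1 to 4 (difference -0.31 ± 0.11, SE, limma adjusted p = 0.0483). That difference missed the threshold when any 1 of 10 of the 18 arrays was left out, with adjusted p up to 0.192.

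Dusp2 and Dusp26 stood out at time point 5, which had 1 array. Dusp2, a nuclear phosphatase induced by mitogens in lymphocytes, read 1.14 there and between -0.42 and 0.36 on 16 other arrays (F = 4.87, limma adjusted p = 0.000129). Its probe is at position 3 of 20, among the spots raised at time point 5, and without that array the adjusted p was 0.163. Dusp26 read 1.11 at time point 5 and between -0.59 and 0.57 elsewhere (F = 5.29, limma adjusted p = 8.75e-05), and the call held without that array (adjusted p = 0.0488).

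The other 6 members called had F values of 2.47 to 3.57. Ppp1r15b, which directs PP1 to the translation factor eIF2 alpha, read 0.29 and 0.51 at time point 3 and -0.57 and -0.42 at time point 7 (F = 3.57, limma adjusted p = 0.00443). Map4k4, a kinase upstream of JNK, had its highest values at the end, 0.61 and 0.52 at time point 9, then 0.93 and 0.73 at time points 10 and 11. It lay between -0.27 and 0.45 at time points 1 to 8 (F = 3.42, limma adjusted p = 0.00876, but 0.1001 without time point 10). Its spot was blanked at time points 5 and 6.

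Ppp1r14bl, named as a relative of a PP1 inhibitor, read -0.94 at time point 11 and between -0.42 and 0.30 elsewhere (F = 3.37, limma adjusted p = 0.00686, but 0.298 without time point 11). Ppp2r1b, a scaffold subunit of PP2A, was negative at time points 6 (-0.45) and 10 (-0.34) and between -0.08 and 0.45 otherwise (F = 2.78, limma adjusted p = 0.0198, up to 0.235 without 1 of those arrays). Mapk13 was highest at time points 3 and 4, with 0.39 and 0.64 and then 0.28 and 0.65, and lay between -0.20 and 0.24 otherwise (F = 2.47, limma adjusted p = 0.0394). Map3k2 (MEKK2), close in sequence to Map3k3, read 0.68 at time point 5 and between -0.40 and 0.37 otherwise (F = 2.65, limma adjusted p = 0.0401). The Mapk13 call was lost without any 1 of 8 arrays and the Map3k2 call without any 1 of 5, time point 5 among them. Unlike Map3k3, which read -1.30 and -1.93, Map3k2 read -0.15 and -0.39 at time point 7, a difference not tested.

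The contrast of time points 7 to 9 with 1 to 4 called 6 of 35 members (17.1%), 2 higher and 4 lower. Among all 3798 genes tested, 9.43% were called, 2.45% higher and 6.98% lower. The split was 3 higher and 3 lower with arrays centred by block of probe numbers, and 1 and 1 without centring, which adds 0.12 to 0.435 to an array's values. In these settings the share of all genes was not counted. The median difference was -0.07 for members and -0.04 for all genes. Map2k6 and Ppp1ca were the higher ones, and Map3k3 and Ppp2r5e, described above, were lower.

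Ppp6c and Dusp12 completed the lower group. Ppp6c, the catalytic subunit of PP6, ranged from -0.73 to -0.04 (median -0.34) on the 6 arrays of time points 7 to 9, against -0.26 to 0.54 (median -0.01) on the 8 arrays of time points 1 to 4. Dusp12, an atypical phosphatase with a zinc-binding domain, ranged from -0.77 to -0.03 (median -0.37), against -0.41 to 0.20 (median -0.03). In both genes the ranges overlapped. The differences were -0.34 ± 0.11 (SE, limma adjusted p = 0.028) for Ppp6c and -0.32 ± 0.11 (SE, limma adjusted p = 0.0367) for Dusp12. Leaving out any 1 of 7 arrays ended the call for Ppp6c and any 1 of 8 for Dusp12, with adjusted p up to 0.266 and 0.178. For Map3k3 and Map2k6 no single array did, but in the fit with all 20 arrays no member was called in this contrast, where 1 higher and 6 lower of 33 had an unadjusted limma p under 0.05 (Map2k6 adjusted p = 0.0595, Map3k3 0.107). Without both arrays of time point 4, where 1 label differs, the differences of Ppp1ca (limma adjusted p = 0.102) and Ppp2r5e (0.105) missed the threshold and that of Dusp22 passed it (0.0385).

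At the 7 time points with 2 arrays, 45 of 251 tests of a member at a time point were called, 31 higher and 14 lower than the median probe. The share called among all genes was 14.8% over these time points. By time point, members called were 9, 1, 8, 10, 11, 2 and 4 at time points 1, 2, 3, 4, 7, 8 and 9. The shares were 25%, 2.78%, 22.2%, 27.8%, 30.6%, 5.71% and 11.1% of members, and 20.1%, 3.81%, 11.6%, 24.2%, 27.2%, 6.54% and 9.64% of all genes. In both, time points 2 and 8 were lowest and time point 7 highest, and the widest gap was at time point 3. Members called higher numbered 7, 0, 6, 8, 6, 2 and 2, beside 14.6%, 2.26%, 7.16%, 14.9%, 14.8%, 3.4% and 4.93% of all genes. Members called lower numbered 2, 1, 2, 2, 5, 0 and 2, beside 5.47%, 1.54%, 4.49%, 9.22%, 12.4%, 3.14% and 4.71% of all genes.

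**Figure D3:**
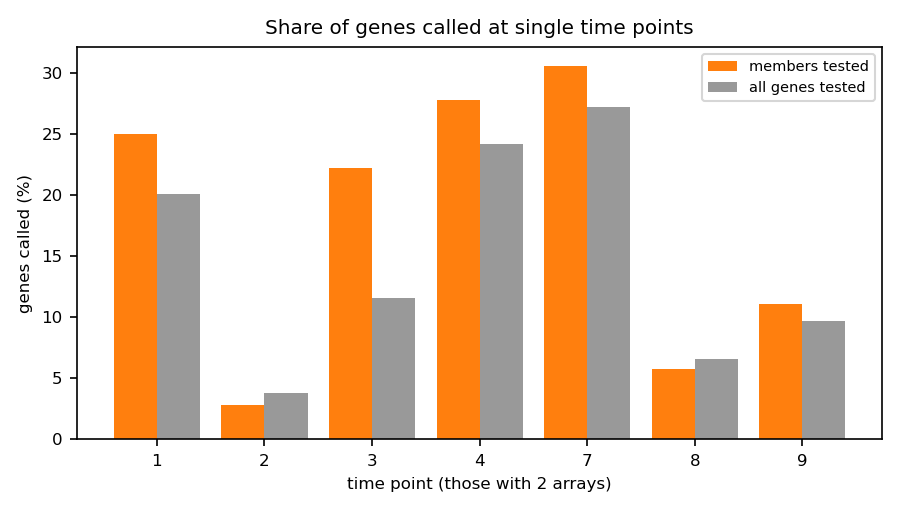
Share of genes called at each time point with 2 arrays (y axis, percent, limma adjusted p under 0.05), for tested members (orange, left) and all genes tested (grey, right). Both shares are lowest at time point 2 and highest at time point 7.

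At time point 1 the higher members were Ppp6r2 (0.58), Ppp2r1a (0.48), Map3k5 (0.48), Map3k7 (0.46), Map3k14 (0.43), Mapk8ip3 (0.41) and Dusp26 (0.37), and the lower ones Map2k6 (-1.13) and Ppp1ca (-0.71). Time point 2 had Ppp1ca alone (-0.63). Time point 3 had Ppp2r5e (0.91), Mapk13 (0.52), Mapk9 (0.51), Map3k14 (0.49), Ppp2r1b (0.42) and Ppp1r15b (0.40) higher, with Map2k6 (-1.15) and Ppp1ca (-0.77) lower. These values are means of both arrays. At time point 4 Mapk9, Ppp2r5e, Map3k5, Mapk13, Dusp22, Map3k14, Mapk8ip3 and Ppp2r1b were higher, from 0.56 to 0.36, and Map2k6 (-1.78) and Ppp1ca (-1.10) lower.

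Time point 7 had 5 of 36 members lower, more than any other with 2 arrays. Among all genes 12.4% were lower there, near the share of members and also the highest of these time points. The lower members were Map3k3 (-1.62), Mapk6 (-0.69, from 1 array), Dusp12 (-0.58), Ppp1r15b (-0.50) and Ppp6c (-0.38). Dusp22 (0.73), Mapk9, Ppp6r2, Ppp1r14b, Map3k5 and Ppp2r1b (0.45 to 0.38) were higher there. At time point 8 Map3k14 (0.47) and Dusp22 (0.43) were higher. At time point 9 Map4k4 (0.57) and Dusp22 (0.56) were higher and Ppp1ca (-1.07) and Map2k6 (-0.59) lower. Of the 45 calls, 36 were lost when at least 1 of their own arrays was left out, 8 were kept without either array, and that of Mapk6 at time point 7 has no value without its 1 array. Those of Ppp2r5e at time point 3, Map2k6 at time point 4, and Dusp22 and Map3k3 at time point 7 were kept under every alternative tried.

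Kinases and phosphatases were then compared over the 11 time points. At time points 1 to 11 the median kinase stood at 0.05, 0.23, 0.18, 0.20, 0.39, -0.04, 0.04, 0.06, 0.07, 0.13 and 0.03. The median phosphatase stood at 0.14, 0.14, 0.13, 0.19, 0.05, 0.00, 0.08, 0.03, 0.05, 0.12 and 0.03. Phosphatases were highest at time point 4 and kinases at time point 5, and both were lowest at time point 6. Kinases minus phosphatases averaged 0.034 ± 0.112 (SD, n = 11 time points), so the mean difference was smaller than its spread between time points. The kinase median was higher at 8 of 11 time points, by 0.005 to 0.09 except at time point 5.

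At time point 5 the kinase median exceeded the phosphatase median by 0.34, over 10 kinases and 20 phosphatases on 1 array. Map3k7 (1.00), Map3k2 (0.68) and Map3k5 (0.48) were among the high kinases there, and their probes lie at positions 2 or 3 of 20. With the first 4 positions blanked, the difference at time point 5 was 0.30. Without time point 5 the difference averaged 0.00375 over 10 time points, in a range of -0.09 to 0.09. Without regulatory subunits, the average over 11 time points was 0.128. Single time points then moved by at least the SD of 0.112 at time points 5, 7, 9, 10 and 11, to 0.48, 0.23, 0.16, 0.15 and 0.165. With means of members in place of medians, those that moved as far were time points 5, 6, 7, 10 and 11, to 0.20, -0.22, -0.18, 0.18 and 0.13. The size and sign at a time point thus depended on these choices. The mean of the kinase medians was 0.121 and that of the phosphatase medians 0.086, against 0.033 for all genes tested.

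**Figure D4:**
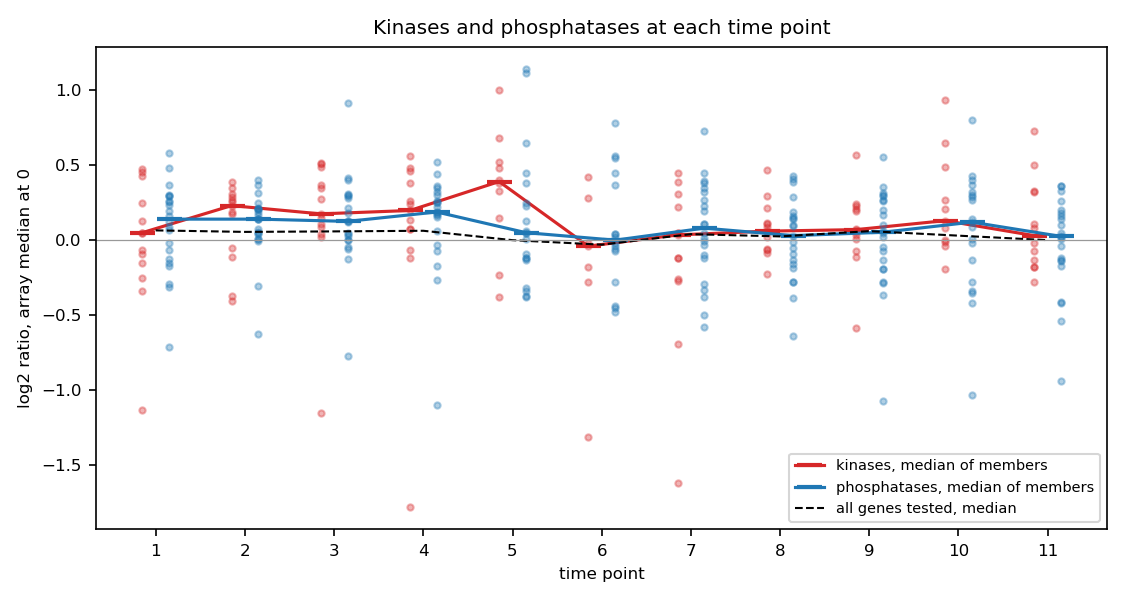
Time-point means of the log2 ratio (y axis) of tested kinases (red, left) and phosphatases (blue, right) by time point (x axis), with the median of each class as a line and of all genes tested as a dashed line. The medians lie within 0.09 of each other except at time point 5, where kinases stand 0.34 higher, and single members spread far more widely than the class medians differ.

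Members of a class differed far more from each other than the classes did. At time point 4 kinases ranged from -1.78 (Map2k6) to 0.56 (Mapk9), and phosphatases from -1.10 (Ppp1ca) to 0.52 (Ppp2r5e). At time point 7 kinases ranged from -1.62 (Map3k3) to 0.45 (Mapk9), and phosphatases from -0.58 (Dusp12) to 0.73 (Dusp22). At time point 8, where both ranges were narrow, kinases lay between -0.23 (Map3k4) and 0.47 (Map3k14). Phosphatases lay between -0.64 (Ppp2r2cos, classed by its symbol alone) and 0.43 (Dusp22).

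The mean over time points asks which members stayed higher or lower throughout, a question in which dye bias and a steady difference cannot be told apart. Of 37 members, 15 were higher and 2 lower (45.9% called). Among all 4398 genes tested 32.9% were called, 20.1% higher and 12.8% lower. The median of the means was 0.08 for members and 0.02 for all genes. Kinases had 6 higher and 1 lower of 13, phosphatases 8 higher and 1 lower of 22, and scaffold proteins 1 higher of 2. Both classes had a median mean of 0.08. The test treats time points as independent.

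Among upstream kinases, Map3k14 (NIK, the kinase of the noncanonical NF-kappa B pathway) was the highest member at 0.37 ± 0.15 (SD, n = 11, limma adjusted p = 0.000194). Its arrays ranged from -0.06 to 0.65 with a median of 0.37, and 17 of 18 were positive. Map3k7 (TAK1, activated by TGF-beta and interleukin-1 receptors) averaged 0.34 ± 0.25 (SD, n = 10, limma adjusted p = 0.00363), between 0.08 and 1.00 on 17 arrays, all positive. Map4k4 averaged 0.34 ± 0.32 (SD, n = 9, limma adjusted p = 0.0133). Map3k5 (ASK1, a kinase activated by oxidative stress) averaged 0.26 ± 0.22 (SD, n = 11, limma adjusted p = 0.00772), although it read -0.18 at time point 6 and -0.07 and -0.05 at time point 8.

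The remaining MAP3Ks did not pass: Map3k20 (0.07), Map3k2 (0.08), Map3k4 (-0.07) and Map3k3 (-0.22, whose values were not steady). Of the MAP2Ks, Map2k5, the activator of ERK5, averaged 0.18 ± 0.16 (SD, n = 10, limma adjusted p = 0.0344), and Map2k6 -0.56 ± 0.60 (SD, n = 10, limma adjusted p = 0.0119). Of the MAP kinases, Mapk9 averaged 0.28 ± 0.29 (SD, n = 10, limma adjusted p = 0.0208), and Mapk13 (0.08) and Mapk6 (-0.15) did not pass. Mapk8ip3 (JIP3), a JNK scaffold that also binds kinesin, averaged 0.18 ± 0.19 (SD, n = 11, limma adjusted p = 0.0358), and Mapkbp1, a JNK-binding protein, 0.03 ± 0.10. Leaving out 1 time point ended the call for Map2k5 in 6 of 11 cases, for Mapk8ip3 in 7 and for Mapk9 in 2, with adjusted p up to 0.084.

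Among phosphatases, Ppp1ca was the lowest member at -0.65 ± 0.40 (SD, n = 9, limma adjusted p = 0.000753), negative at all 9 time points. The other catalytic subunits tested were Ppp2cb, of PP2A, at 0.20 ± 0.20 (SD, n = 11, limma adjusted p = 0.0245) and Ppp6c at -0.14 ± 0.20, which did not pass. Ppp2cb, at position 4 of 20, read 0.65 at time point 5, its highest value, and averaged 0.15 without that time point (limma adjusted p = 0.0416). Ppp6r2, a regulatory subunit of PP6, averaged 0.36 ± 0.22 (SD, n = 11, limma adjusted p = 0.00103), and all 18 of its arrays lay above 0, from 0.01 to 0.78 with a median of 0.35. Ppp6c and Ppp6r2, both of PP6, thus had means on opposite sides of the median probe, a difference between genes that was not tested.

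Of the dual-specificity phosphatases Dusp22 alone was called, at 0.37 ± 0.31 (SD, n = 11, limma adjusted p = 0.00456), and Dusp26 (0.18), Dusp2 (0.09), Dusp13 (0.02) and Dusp12 (-0.13) did not pass. Of PP2A subunits, Ppp2r5e averaged 0.31 ± 0.28 (SD, n = 11, limma adjusted p = 0.00735) and the scaffold subunit Ppp2r1a 0.18 ± 0.15 (SD, n = 9, limma adjusted p = 0.0415). This last call was lost without any 1 of 7 time points, with adjusted p up to 0.0986, and its spot was blanked at time points 5 and 6, where it read 1.88 and 1.13.

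Of the 8 PP1 regulators tested, 3 were higher and 5 did not pass. Ppp1r27 averaged 0.24 ± 0.15 (SD, n = 11, limma adjusted p = 0.00393), and 17 of its 18 arrays were positive. Ppp1r14a (CPI-17), an inhibitor of myosin phosphatase, averaged 0.23 ± 0.17 (SD, n = 11, limma adjusted p = 0.00769). Ppp1r12a (MYPT1), the targeting subunit of myosin phosphatase, averaged 0.19 ± 0.13 (SD, n = 10, limma adjusted p = 0.0169). The 8 regulatory subunits that did not pass had means between -0.17 (Ppp1r14bl) and 0.17 (Ppp2r1b). Other settings ended single calls of the mean. The limma adjusted p was 0.0742 for Map2k6 without centring and 0.053 for Ppp2cb without time point 11. With centring by block of probe numbers it was 0.0762 for Map3k5, 0.0862 for Ppp1r12a and 0.0578 for Ppp2r1a. With all 20 arrays and spots it was 0.0544 for Map4k4, 0.169 for Map2k5, 0.103 for Mapk9 and 0.0921 for Ppp2r1a. The last 3 also missed the threshold on all 20 arrays with the raised spots blanked. Without time points 5 and 6 it was 0.0563 for Map2k5. A plain one-sample test gave an adjusted p of 0.0527 for Map2k6 and 0.0506 for Mapk9. Without time point 4, where 1 label differs, 11 members were higher, and Map2k5, Mapk8ip3, Mapk9 and Ppp2r1a missed the threshold. The share of all genes called was not counted there. With the sign of second arrays turned, limma called 0 members (3 higher and 2 lower had an unadjusted p under 0.05). Because both arrays of a time point correlated positively, turning 1 of them cancels much of their mean. This setting therefore cannot show how stable a call is.

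**Figure D5:**
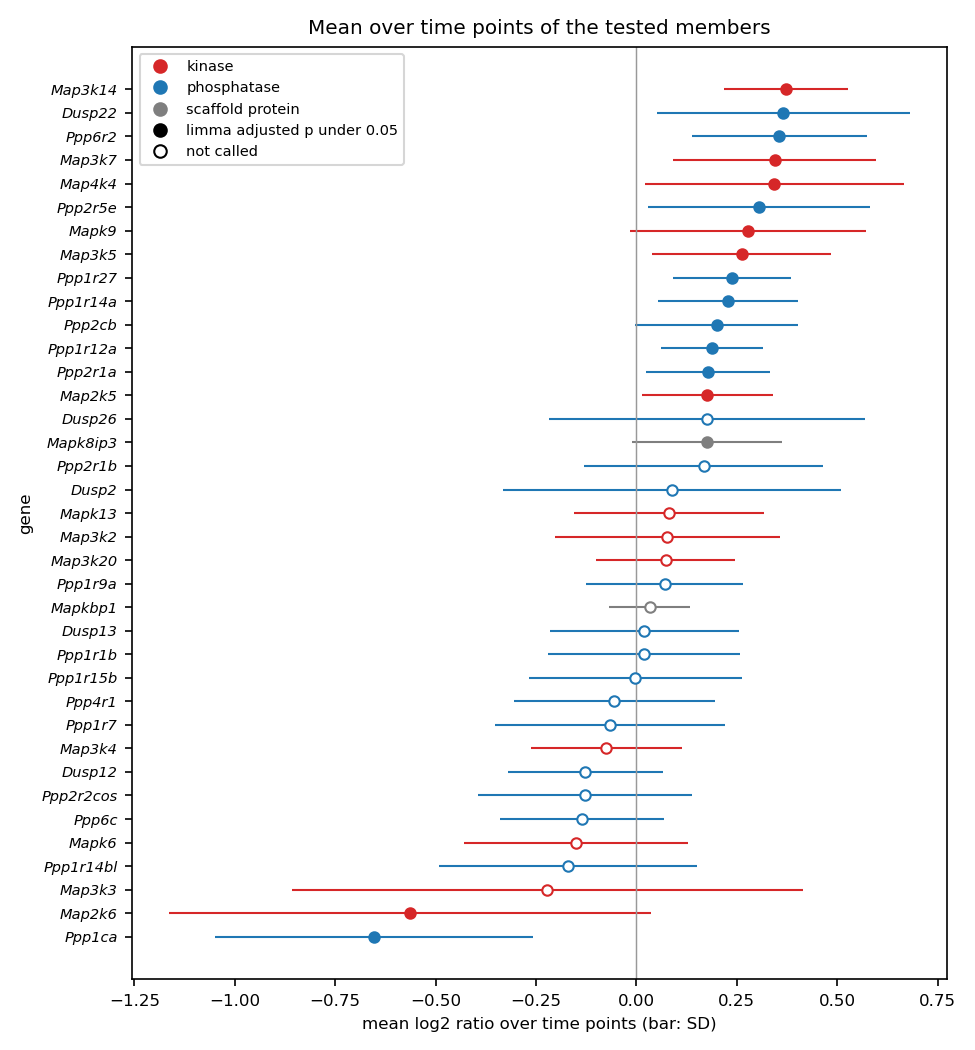
Mean log2 ratio over time points (x axis) of the 37 members tested (y axis, by gene), with bars for the SD over time points. Filled points have a limma adjusted p under 0.05, and 15 of them lie right of 0 and 2 (Map2k6 and Ppp1ca) left of it.

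A period of 5 time points, which would follow the medium exchanges if the 11 samples were evenly spaced over the 96 h, was tested in members with a value at every time point. The limma test called 0 of 19 members, and Ppp2r1b alone had an unadjusted limma p below the threshold (0.0221). Of all 2574 genes tested 0% were called and 126 (4.9%) had an unadjusted p under 0.05, a share near that of members.

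A further 46 members had values on too few arrays to be tested. On the spots kept of the 18 arrays, Ppp2r5a, Ppp1r10 and Map2k1 alone of those with values on 6 or more arrays had only negative values. Some members with fewer arrays did too, such as Mapk7 (5 arrays, -0.40 to -0.11) and Ppp1r3d (5 arrays, -0.225 to -0.02). Ppp2r5a, a B56 subunit of PP2A like Ppp2r5e, lay between -0.89 and -0.26 on 11 arrays (median -0.44). Ppp1r10 (PNUTS), a nuclear PP1 partner, lay between -0.92 and -0.06 on 8 arrays (median -0.53). Map2k1 (MEK1), the activator of ERK, lay between -0.63 and -0.07 on 6 arrays of time points 1 to 4 (median -0.45). Its probe is at the first of 20 positions and was blanked at time points 5 and 6, where it read 2.60 and 1.76. Dusp21 read -1.91 at time point 6 and -1.63 and -1.58 at time point 7, with -1.01, 0.61, -0.26 and -0.19 on 4 other arrays. Its 3 lowest values fell on the arrays where Map3k3 was low, and the next, -1.01, on the second array of time point 1, where Map3k3 read 0.04.

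Map3k8 (3.32) was measured at time point 5 only, and Ppp5c (3.09 and 1.44) and Mapk8ip1 (1.79 and 0.89) at time points 5 and 6 only. These 3 probes lie at position 2 of 20, among the spots raised at those time points, and the part of that position in the values was not tested. Ppp1cb, Ppp1cc and Ppp2ca, catalytic subunits of PP1 and PP2A, had medians of 0.04, 0.10 and -0.11 over 9, 10 and 11 arrays. Their probes lie at positions 2, 3 and 4, and they read 0.04, -0.26 and -0.11 at time point 5. Dusp4 (11 arrays, median 0.05) and Dusp6 (3 arrays, median -0.16), which act on ERK, and Dusp10 (4 arrays, median -0.15), which acts on p38 and JNK, lay on both sides of 0. Dusp1, Dusp7 and Dusp23 were among the 33 members without a value on the 18 arrays, of which 26 had none on any of the 20.

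Other genes of the pathway were listed by function, and 11 of 32 tested (34.4%) were called for the mean over time points, against 32.9% of all genes. Among time points 18 of 32 differed (56.2%), against 31.2% of all genes. Of 8 receptors and Ras-Raf proteins tested, 1 was higher (Fgfr4, 0.23 ± 0.28, SD, n = 10) and 1 lower (Pdgfrb, -0.30 ± 0.34, n = 9), and 6 differed among time points. Of 10 transcription factors and immediate early genes, Fos (0.25 ± 0.33, n = 11) and Srf (0.19 ± 0.21, n = 11) were higher and Jun (-0.29 ± 0.36, n = 9) lower, and 7 differed among time points. The downstream kinase Rps6ka3 (-0.07) passed neither test.

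Of 5 other inhibitors of the pathway, Gadd45b, a stress-induced protein that binds MAP3K4 and inhibits the JNK activator MKK7, was the 1 that was higher, at 0.48 ± 0.18 (SD, n = 9, limma adjusted p = 0.000194). It lay between 0.24 and 0.76 on 15 arrays. Among time points 1 of these 5 differed. Of 8 other partners of phosphatases, Tiprl (0.33) and Rcan1 (0.27), an inhibitor of calcineurin, were higher, and Nfatc4 (-0.45), a calcineurin substrate, Arpp19 (-0.25), an inhibitor of PP2A once phosphorylated, and Calm3 (-0.19) lower, and 4 differed among time points. Ddit3 (CHOP), a stress-induced transcription factor, ranged from -0.36 to 1.04 on 18 arrays (median 0.31).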

How the data were processed

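The deposited table gave 1 value per probe and array, taken here as a log2 ratio; what the authors did to make these values (background, normalization, blanking of spots) the sources used here do not state. Direction and base are inferred, and spot intensities were not used here, so neither background nor normalization was redone. Each array was centred on its median. The platform annotation gave 14718 probes 1 symbol and 1 probe several, and 2562 probes had no usable symbol. Of the listed probes, 14445 matched the RefSeq gene table by gene ID, all 126 member probes among them. Probes of a symbol were averaged (9 members had 2). The second arrays of time points 6 and 10 were left out, as were every 20th spot, counted from the first probe number, at time points 5 and 6.

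Tests used limma 3.58.1 in R 4.3.3, with Benjamini-Hochberg adjustment over all genes tested and a threshold of 0.05. They covered the mean over time points (9 or more required), the F-test among time points, single time points and time points 7 to 9 minus 1 to 4 (14 or more arrays), and a period of 5 steps (all 11 time points). In the time point fits each gene was fitted over its own values, and limma moderated the variances. The prior had 86.3 degrees of freedom, and a gene's own spread came from at most 7 time points with 2 arrays. Each SE and p of these fits thus rests mostly on the spread pooled over genes. Tests were tested on simulated data. Same-numbered arrays were not paired: deviations of the second from the first array correlated at -0.432 to 0.332 over 21 pairs of time points, above 0.1 in 6.

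Members and lists were chosen with earlier results of these data known. Named members were those called in any of the 5 tests, the 2 highest and 2 lowest means of each role, and the 10 with the smallest F-test p, and members without tests are named to account for them. Other genes named were up to 3 called genes of a list in each direction, otherwise the 2 with the largest mean, Gadd45b, Ddit3 and Alb. After their values were seen, the other cell type markers tested for the mean were named too. Alternatives varied arrays, spots, centring, filters and tests. Precision is limited by how many arrays there were.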

Additional observations from a re-analysis of the deposited data

Results flagged for a closer look

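Of 35 members tested, 6 (17.1%) differed between time points 7 to 9 and time points 1 to 4 by a test of that difference. The threshold was a limma adjusted p under 0.05, which 9.43% of all genes passed. Averaged over the later time points, Map2k6 (0.89) and Ppp1ca (0.39) were higher. Map3k3 (-0.72), Ppp6c (-0.34), Dusp12 (-0.32) and Ppp2r5e (-0.31) were lower. Ppp1ca was at -0.10 and -0.05 at time points 7 and 8, but at time point 9 (-1.07) it lay below its earlier mean (-0.80). The call was lost without any 1 of 3 arrays for Ppp1ca, 7 for Ppp6c, 8 for Dusp12 and 10 for Ppp2r5e. For Map3k3 the values of time points 8 and 9 were near those of time points 1 to 4, so the difference came with time point 7.

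Another 13 results were members that differed among all time points by limma's F-test, of 36 tested (36.1%, against 31.2% of all genes). The F was 16.2 for Map3k3, 13.2 for Map2k6 and 6.74 for Ppp1ca. It was 5.29 for Dusp26 and 4.87 for Dusp2, both highest at time point 5, which had 1 array. It was 3.57 for Ppp1r15b, 3.54 for Ppp2r5e, 3.42 for Map4k4, 3.37 for Ppp1r14bl and 3.34 for Dusp22, and 2.78 for Ppp2r1b, 2.65 for Map3k2 and 2.47 for Mapk13. The calls of Dusp2, Ppp2r5e, Map4k4, Ppp1r14bl and Dusp22 were each lost without 1 particular array. Those of Ppp2r1b, Map3k2 and Mapk13 were lost without any 1 of 2, 5 and 8 arrays.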

How the results depend on the processing

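No called member reversed its direction under any alternative, but most calls depended on some setting. With all 20 arrays and all spots, 5 members were called among time points, 6 pairs of member and time point, and 0 higher and 0 lower in the later minus earlier contrast. With the raised spots blanked on all 20 arrays these counts were 0, 6, 0 and 0 (8, 1 and 6 at an unadjusted limma p under 0.05 for the F-test and the contrast). Without the first of every 20 positions on any array, 1 member was lower in the mean and 1 higher in the contrast. Without centring, 27 were higher and 1 lower in the mean, 180 single pairs were called, and the contrast had 1 and 1. Leaving out the centring adds 0.12 to 0.435 to every value of an array. Shares of all genes were not counted under any alternative, so these counts cannot set members apart from other genes. A filter of 6 or more time points gave 5 lower of 50, and one of all 11 gave 9 higher and 0 lower of 19 (1 lower at an unadjusted limma p under 0.05). A filter of 10 or more arrays left 2 lower in the contrast, and a value on every array left 6 members called among time points and 1 higher in the contrast. A plain one-sample test left 1 lower. With the sign of second arrays turned, limma called 0 higher and 0 lower, with 3 and 2 at an unadjusted p under 0.05. That setting cancels much of the mean of each correlated pair of arrays, so it cannot show how stable a call is.

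Leaving out 1 time point gave 11 to 16 higher and 2 to 3 lower in the mean, and 0 to 0 in the periodic test. The kinase minus phosphatase difference, averaged over time points, was then -0.004 to 0.0468. At single time points that difference moved under other settings, as given above. Leaving out 1 array gave 10 to 15 members called among time points, 36 to 47 single pairs, and 1 to 2 higher and 1 to 4 lower in the contrast. With the replicate block, 11 members were called among time points, 44 single pairs, and 2 higher and 3 lower in the contrast. Chosen after seeing the data, blanking positions 1 to 4 at time points 5 and 6 gave 14 higher and 2 lower in the mean and 11 among time points, and dropping both time points gave 16 and 3 of 43, 9 among time points and a kinase minus phosphatase difference of -0.013. The causes of these changes were not tested. Blank spots and the number of arrays at a time point limit these results.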

Other observations

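The second arrays of time points 6 and 10, which entered only the alternatives with all 20 arrays, gave values for some members. Across probes they were close to uncorrelated with the other 18 arrays (-0.039 to 0.054 and -0.067 to 0.009). Their values may therefore not belong to the genes named, and are not a measure of the spread between replicates. The 2 arrays were not alike in which spots had a value. That pattern correlated with another array at up to 0.752 for time point 10, but only at up to 0.015 for time point 6. On the second array of time point 10 Map3k3 read 1.26, Ppp1ca 0.46, Map2k6 0.31, Map4k4 0.20, Map3k14 -0.16, Dusp22 -0.29 and Ppp2r5e -0.33. On the first array of that time point they read -0.01, -1.03, 0.00, 0.93, 0.65, 0.80 and 0.09. On the second array of time point 6 Map2k6 read 0.03, against -0.28 on the first.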
